A study of Xenopus laevis with 18 samples.

Results

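A set of 110 transcripts of the African clawed frog Xenopus laevis first reached 10 TPM at Nieuwkoop-Faber (NF) stage 30 or 33, the last 2 stages measured. They are 0.355% of the 30993 Xenopus rows in the expression table. TPM is a transcript's abundance per length, scaled so that all Xenopus rows of a library sum to 1000000. Members had a mean under 1 TPM at NF 0 to NF 7, when the embryo lives on maternal RNA. They also had a mean of at least 10 TPM over NF 23, 26, 30 and 33, and no library at 10 TPM or more before NF 30. These measured values chose the members, so their late rise is a description and not a finding.

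RNA came from whole embryos of the J strain, an inbred laboratory strain, frozen at 18 stages with 1 library per stage. All were raised in dilute MMR salt solution with gentamycin, and the labels name no other agent. Ribosomal RNA was depleted from total RNA before the libraries were made, so transcripts without a long poly(A) tail are kept. The libraries fall by stage into a pre-midblastula (NF 0 to 7, n = 5), a blastula (NF 8 to 9, n = 3), a gastrula (NF 10 and 12, n = 2), a neurula (NF 14 to 20, n = 4), an early tailbud (NF 23 and 26, n = 2) and a late tailbud window (NF 30 and 33, n = 2). No stage was measured more than once, so an SD or a test between windows rests on neighbouring stages, whose spread holds real change as well as technical error. How many embryos went into a library is not stated in the labels.

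At the tailbud stages the organ rudiments of the frog embryo turn into working tissue. The lens and retina of the eye, the heart tube, the first kidney (pronephros) and blood begin to make the proteins of their mature cells. Such products are often made in a small part of the embryo, which a whole-embryo library dilutes. None of the 30993 row names matched the RefSeq table of Xenopus laevis genes (0 matches), so no member is given a gene name, a role or a tissue, and the label of an organ cannot be checked against markers. In a whole embryo, more cells of a type and more RNA per cell cannot be told apart.

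The 110 transcripts together held 0.142% of the Xenopus total at NF 30 and 0.621% at NF 33, from 0.000965% ± 0.000123 in the pre-midblastula window (SD, n = 5). Their share was 0.000926% ± 0.000203 in the blastula window (SD, n = 3) and 0.00574% ± 0.00376 in the neurula window (SD, n = 4). NF 10 and 12 gave 0.00135% and 0.00193%, and NF 23 and 26 gave 0.0305% and 0.0579%. The share was thus near level to NF 9 and higher in each library after NF 9 than in the one before it, with the exception of NF 16, at 0.00339% after 0.00368% at NF 14. The summed TPM at NF 23 was 2.69 times that at NF 20. The later steps were 1.90 times from NF 23 to NF 26, 2.45 times from NF 26 to NF 30 and 4.38 times from NF 30 to NF 33. The last step was the largest of these 4.

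**Figure D1:**
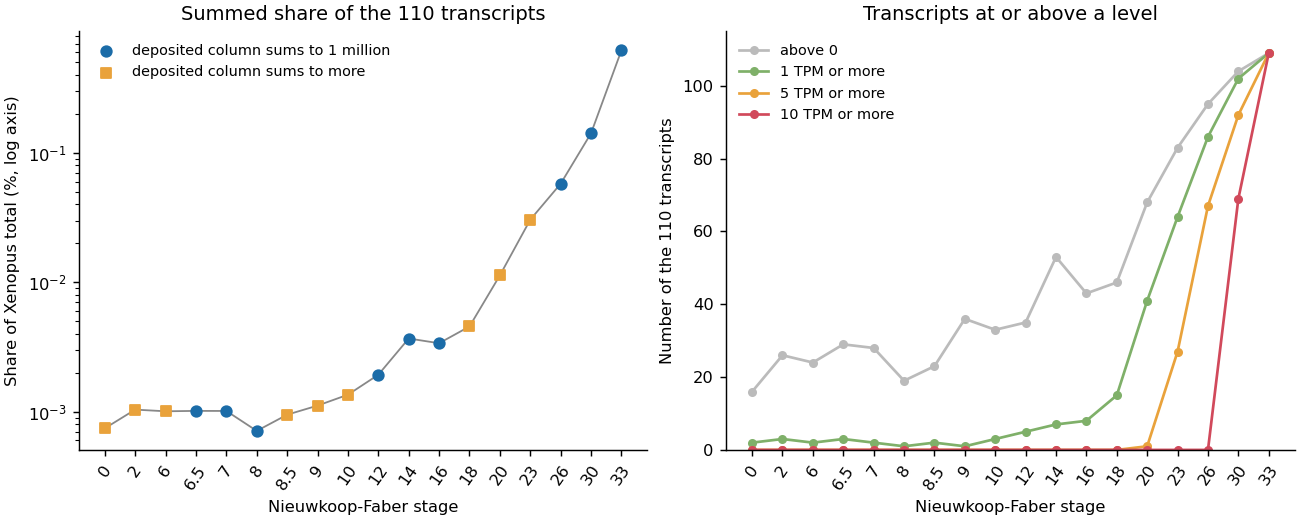
Left, summed share of the 110 transcripts in the Xenopus total (percent, log axis) in each of 18 libraries, with marker shape and colour for the sum of the deposited column. Right, number of the 110 transcripts above 0 and at 1, 5 and 10 TPM or more. The share runs from 0.000745% at NF 0 to 0.621% at NF 33, and 67 transcripts were already at 5 TPM or more at NF 26, where the rule allowed none at 10.

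Most members were present below the threshold before NF 30, so for them NF 30 and NF 33 mark a level and not a first appearance. The first library at 1 TPM or more was NF 26 or earlier for 88 of the 110 transcripts and NF 30 or NF 33 for 22. NF 20, 23 and 26 were that library for 23, 21 and 21 transcripts, while 10 were first there at NF 14 to 18 and 13 at NF 12 or before. Members at 1 TPM or more numbered 1 to 5 in every library up to NF 12, then 15, 41, 64, 86 and 102 at NF 18, 20, 23, 26 and 30, in that order. The median level over members at NF 20, 23, 26, 30 and 33 was 0.398, 1.87, 6.08, 11.1 and 33.8 TPM, respectively. Of the 110, 80 were higher at each step from NF 23 to NF 26, NF 30 and NF 33 than at the stage before.

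**Figure D2:**
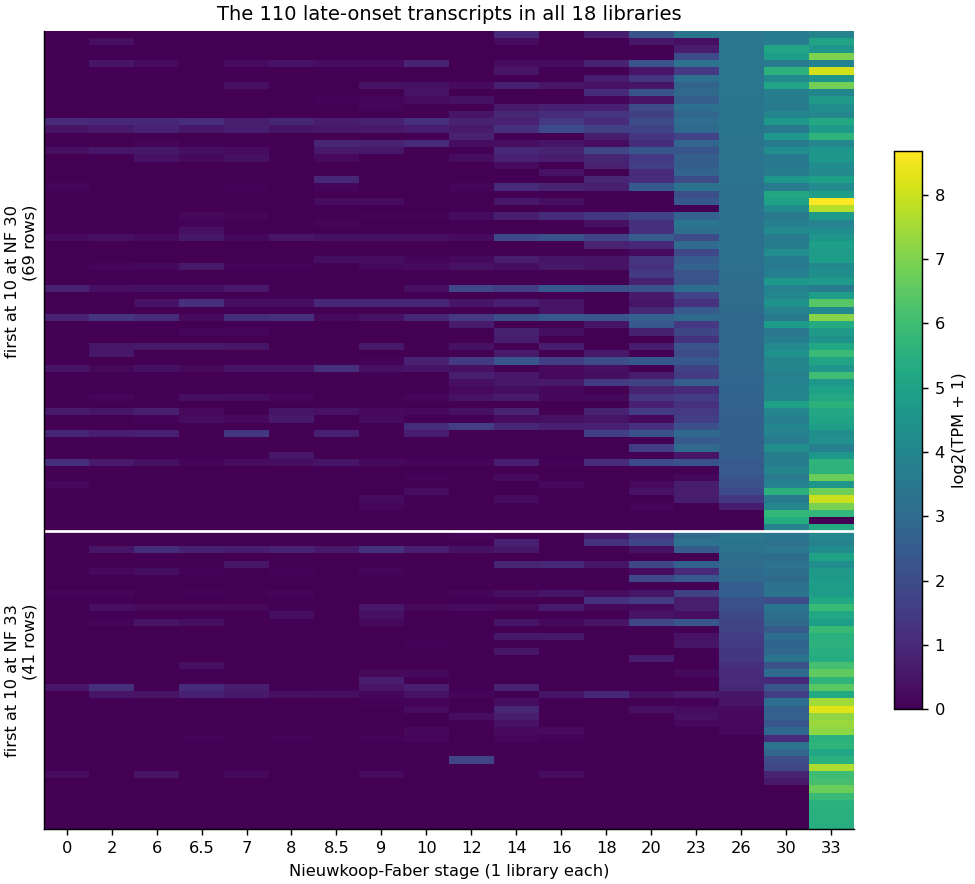
log2(TPM + 1) of the 110 transcripts (rows) in 18 libraries (columns, in stage order), split by the first library at 10 TPM or more and sorted by the NF 26 level. In the upper block of 69 the median level at NF 26 was 7.62 TPM, and in the lower block of 41 it was 1.10 TPM.

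The 69 transcripts that crossed 10 TPM at NF 30 mostly stood at 5 to under 10 TPM at NF 26. Their median level at NF 20, 23, 26, 30 and 33 was 1.01, 3.57, 7.62, 13.8 and 26.0 TPM, respectively. At NF 26, 59 of the 69 were at 5 TPM or more and 3 were listed at 0. Of the 69, 59 were higher at each step from NF 23 to NF 33 than at the stage before, while 4 were under 1 TPM at NF 26.

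The 41 transcripts that crossed 10 TPM at NF 33 were lower before and higher after. Their median was listed at 0 at NF 20 and at NF 23, and NF 26, 30 and 33 gave medians of 1.10, 6.02 and 45.9 TPM. At NF 26, 8 of the 41 were at 5 TPM or more and 12 were listed at 0. The middle 50% of the 41 lay between 34.5 and 68.2 TPM at NF 33, against 18.8 to 46.8 TPM for those that crossed at NF 30. The rule asks for a mean of 10 TPM over 4 libraries, so a transcript that crosses at NF 33 alone needs a higher NF 33 value to be a member.

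**Figure D3:**
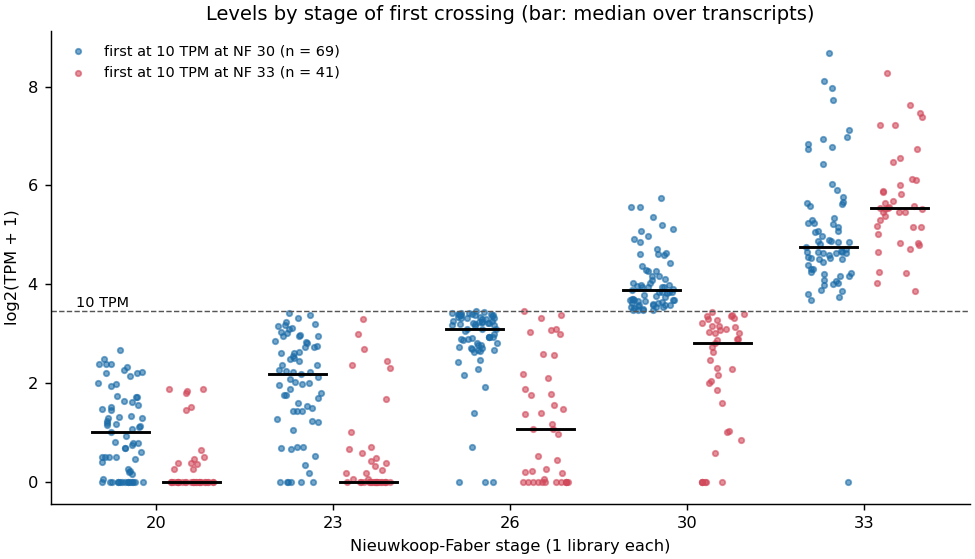
log2(TPM + 1) at NF 20, 23, 26, 30 and 33 for the 69 transcripts first at 10 TPM at NF 30 and the 41 first there at NF 33. Each point is a transcript in 1 library, bars are medians over transcripts, and the dashed line marks 10 TPM. The medians are 7.62 and 1.10 TPM at NF 26, and 26.0 and 45.9 TPM at NF 33.

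From NF 30 to NF 33, 105 of the 110 transcripts were higher and 5 were lower. The median log2 change of TPM + 1 was 1.27. Folds in this comparison are on that scale, which understates the change of low rows. At least 2-fold higher were 67 members, where 3.55% of the 12053 rows at 10 TPM or more in either library were, and 1 was at least 2-fold lower, where 2.22% were. At least 4-fold higher were 41 members, where 1.49% of those rows were. In TPM without the added 1, 71 members were at least 2-fold higher. The median log2 change over those 12053 rows was -0.15. The rule used both libraries, and each stage is 1 library without a replicate check, so nothing is read from these counts.

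Technical error of this step can be seen in the ERCC spike-ins, synthetic RNAs added to the samples. They carry no variation between embryos or in staging, which 1 library per stage does not measure. Over 42 spike-ins with a mean of 5 to 500 per 1000000 spike-in, the robust SD of their log2 change from NF 30 to NF 33 was 0.31. The 40 of them above 0 in both libraries ranged from -1.45 to 1.35, and 2 of these changed at least 2-fold. The other 2 were listed at 0 in one of the libraries. One was listed at 0 at NF 30 and at 50.6 per 1000000 spike-in at NF 33, and the other at 92.0 and 0. A listed 0 beside a level above 0 thus also occurs for RNA that was added to each library. These spike-in levels are not on the members' scale. Xenopus RNA was 4.14 and 4.20 times spike-in RNA at NF 30 and NF 33. The same number therefore stands for less RNA in a spike-in than in a member. The 42 members that changed less than 2-fold on the scale of log2(TPM + 1) lie within the range of those 40 spike-ins. So do some of those above 2-fold. Over all 42 spike-ins the log2 change ranged from -6.54 to 5.69, with an SD of 1.44. Nearly all members lie within that wider range.

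**Figure D4:**
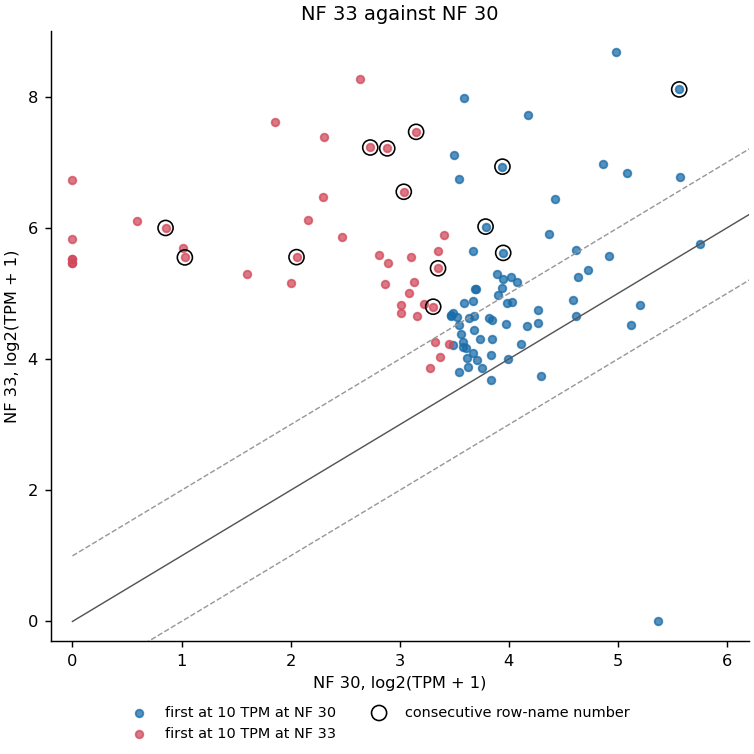
log2(TPM + 1) at NF 33 against NF 30 for the 110 transcripts, coloured by the first library at 10 TPM or more. The solid line marks equal levels, dashed lines mark a 2-fold difference, and rings mark the 13 transcripts whose row name has a number next to that of another member. Of the 110, 67 lie on or above the upper dashed line and 1 lies on or below the lower one, at 0 at NF 33.

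The size of the last step went with the level at NF 26. The 24 members under 1 TPM at NF 26 had medians of 3.53 and 54.6 TPM at NF 30 and NF 33, and 21 of them were at least 4-fold higher at NF 33. These 24 include 7 members above 0 in 1 library only. Of those 7, the 6 above 0 at NF 33 alone are among the 21. The 19 members at 1 to under 5 TPM had medians of 7.75 and 48.2 TPM, with 13 at least 4-fold higher. The 67 members at 5 to under 10 TPM had medians of 12.8 and 24.3 TPM, with 7 at least 4-fold higher. Members that were lowest at NF 26 were thus not the lowest at NF 33, a pattern that the common floor on the tailbud mean helps to set.

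A few transcripts carried much of the summed level. At NF 33, 17 members were at 100 TPM or more, between 106 and 410 TPM, and held 50.0% of the members' sum. At NF 30 these 17 lay between 0 and 46.6 TPM, and 10 of them were at 10 TPM or more. Another 22 members lay between 10 and 20 TPM at NF 33.

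The most abundant member, XeXenL6RMv10038057m, was listed at 0 in every library from NF 0 to NF 8 and again at NF 10, 12, 18 and 20. Low values of 0.224, 0.217, 0.457 and 0.250 TPM came from NF 8.5, 9, 14 and 16. NF 23, 26, 30 and 33 then gave 4.19, 8.48, 30.6 and 410 TPM. The value at NF 33 was 13.4 times that at NF 30. Each of the last 4 libraries lay above all before it.

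The member next in level, XeXenL6RMv10043093m, had values of 0 in all libraries to NF 12 and in those of NF 16 and 18, with 0.366 TPM in between at NF 14. NF 20, 23, 26, 30 and 33 gave 0.434, 1.70, 9.64, 46.3 and 276 TPM. At NF 33 it was 5.96 times its NF 30 level, so it was higher at NF 30 and lower at NF 33 than the most abundant member.

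Other abundant members differed in how long they stayed near 0. The member ranked 3 by its NF 30 and NF 33 mean never passed 0.929 TPM up to NF 26, and NF 30 and 33 gave 5.20 and 308 TPM. The member ranked 6 was listed at 0 in every library to NF 26, and stood at 2.62 and 196 TPM at NF 30 and NF 33. The member ranked 13 was above 0 in all 18 libraries. Its level before the midblastula lay between 0.178 and 1.55 TPM. It was 0.176 TPM at NF 8.5, and NF 10, 12, 14, 20, 26 and 30 gave 0.923, 1.70, 3.14, 5.35, 6.71 and 10.3 TPM. NF 33 gave 138 TPM. This member was thus above 1 TPM from NF 12 on, while the one ranked 6 was not listed above 0 until NF 30.

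**Figure D5:**
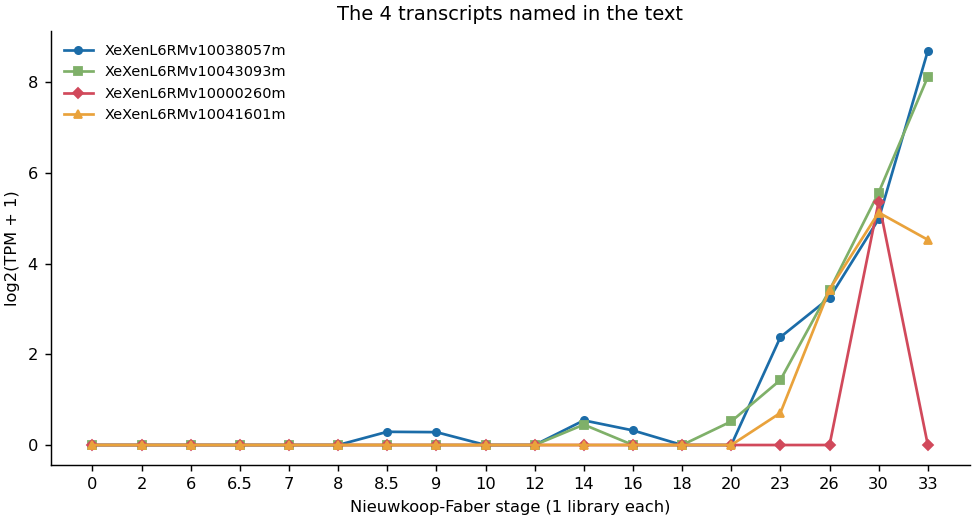
log2(TPM + 1) of 4 transcripts in 18 libraries in stage order. They are the 2 with the highest mean of NF 30 and NF 33 and the 2 with the lowest ratio of NF 33 to NF 30. The first pair ends at 410 and 276 TPM, XeXenL6RMv10041601m has 33.8 and 22.0 TPM in the last 2 libraries, and XeXenL6RMv10000260m is above 0 at NF 30 alone.

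Lower values at NF 33 were rare and, with 1 exception, small. Between both libraries, 4 of the 5 lower members changed by -0.60 to -0.16 on the log2 scale, inside the range of the spike-ins. Among these XeXenL6RMv10041601m was listed at 0 up to NF 20, and NF 23, 26, 30 and 33 gave 0.633, 9.74, 33.8 and 22.0 TPM. The remaining one, XeXenL6RMv10000260m, was listed at 40.2 TPM at NF 30 and at 0 in the 17 other libraries, NF 33 included.

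That transcript is 1 of 7 members above 0 in 1 library only, at 40.2 to 106 TPM there. The other 6 were above 0 at NF 33 alone. Over all 30993 Xenopus rows, 43 were at 40 TPM or more in 1 library and at 0 in all others, and each library held between 0 and 6 of these, with 6 each at NF 23, 26 and 33 and 1 at NF 30. Rows of this kind are thus not limited to the last stages. Without these 7 rows 103 members were left, of which 99 were higher and 4 lower at NF 33 than at NF 30, 61 at least 2-fold higher and 35 at least 4-fold higher, and the median log2 change was 1.22. A further 6 members were above 0 at NF 30 and NF 33 only, with NF 33 levels from 34.5 to 196 TPM.

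Traces in the egg and cleavage embryo were low by the rule, which kept each member's pre-midblastula mean under 1 TPM. They covered a minority of members. No pre-midblastula library had a value above 0 for 69 of the 110 transcripts, or 62.7%. Of the other 41, 35 had a pre-midblastula mean under 0.5 TPM and 6 had one of at least 0.5 TPM, the highest being 0.955 TPM. These 6 reached 17.8 to 138 TPM at NF 33. The share without traces is not given for all rows under that ceiling, so nothing is read from the 62.7%.

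Few members were called between the gastrula and neurula windows, in both of which the rule held them below 10 TPM. With limma over all 21670 rows that had a mean of at least 1 TPM, 14 of 110 members, or 12.7%, were called higher in the neurula than in the gastrula window, where 20.9% of all rows were (adjusted p under 0.05). No member was called lower (0 with limma, and 0 at an unadjusted p under 0.05), where 36.1% of all rows were, but a row near 0 has no room to fall. The median log2 change of TPM + 1 was 0.16 in the members and -0.24 over all rows. All members passed the filter, and they passed it through the tailbud libraries in which they were chosen to be high. The rule set no direction in these windows, but the members' median level was listed at 0 from NF 10 to NF 18 and was 0.398 TPM at NF 20. Members were thus chosen low here, so nothing is read from the share called higher. Without NF 10, which left 1 library in the gastrula window, the median log2 change stayed at 0.16 in the members and was -0.09 over all rows. With a pseudocount of 5 the count of members called higher was 4, where 4272 of all 21670 rows were called higher. With array weights it was 0, where 892 of all rows were, and 1 member was at an unadjusted p under 0.05.

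In the early tailbud window, 66 of 110 members were called higher than in the neurula window, where 20.5% of all rows were (limma, adjusted p under 0.05). The count of members called lower was 0 with limma, and 0 at an unadjusted p under 0.05, where 13.3% of all rows were. The median log2 change of TPM + 1 was 1.58 in the members and 0.11 over all rows. NF 23 and NF 26 enter the tailbud mean of the rule, so this count is a description. Without NF 26, which left 1 early tailbud library, the median log2 change was 0.96 in the members and 0.04 over all rows. The early tailbud libraries also have deposited columns of both kinds, with NF 26 summing to 1000000 and NF 23 to more. With the kind of column as a term in the fit, 65 members and 4526 of all rows were called higher. Between the late and early tailbud windows, the contrast the rule used, 65 of 110 members, or 59.1%, were called higher and 0 lower, where 1.79% and 1.64% of all rows were. At an unadjusted p under 0.05, 98 members differed and 0 of them were lower. The share of all rows at that p is not given. All 110 members had a positive change in this contrast, a direction that the rule largely sets, so nothing is read from these counts. Leaving out NF 23 or NF 33 left 1 library in a window, so only the median log2 change is given. Without NF 23 it was 1.77 in the members and -0.18 over all rows. Without NF 33 it was 1.32 in the 72 members that passed the filter and -0.07 over all rows, against 2.51 and -0.12 with all libraries.

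Transcripts that crossed 10 TPM one window earlier, at NF 23 or NF 26 under the same limits, numbered 438. Their medians were 17.4 and 19.3 TPM at NF 30 and NF 33, and the median log2 change was 0.12, against 1.27 for the 110. Their summed TPM was 1.92 times higher at NF 33 than at NF 30, against 4.38 times for the 110. At least 2-fold higher at NF 33 were 10.3% of the 438 and 60.9% of the 110. In both sets most rows had no value above 0 before the midblastula, namely 55.3% of the 438 and 62.7% of the 110. At NF 20 the median was 4.49 TPM in the 438 and 0.398 TPM in the 110. The rule picked both sets by these same values, so the difference between them was not tested.

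Per spike-in, the late increase was larger than in TPM up to NF 30 and about as large after it. Xenopus RNA per spike-in RNA, a ratio of summed values, at NF 20, 26, 30 and 33 was 2.09, 3.12, 4.14 and 4.20, respectively. On that scale the members' sum was 3.25 times higher at NF 30 than at NF 26, and 4.44 times higher at NF 33 than at NF 30. The median log2 change from NF 30 to NF 33 was 1.32, with 70 members at least 2-fold higher and 1 at least 2-fold lower. The stage at which a member crosses a level of 10 depends on the scale more than this step does. With values per spike-in, brought to an average total of 1000000, 56 of the 110 crossed at NF 30 or NF 33, and 41 and 13 crossed at NF 26 and NF 23. The members' medians at NF 26 and NF 30 were 9.52 and 23.0 on that scale, against 6.08 and 11.1 TPM. A level of 10 is thus a lower threshold there at these stages. The rule on that scale took 297 rows, of which the 56 were 18.9%, and which held 50.9% of the 110.

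The limits of the rule cut through a continuous range. At NF 26, 21 members lay at 9 to under 10 TPM, the highest at 9.98 TPM, and 21 rows under the same other limits lay at 10 to 11 TPM, the lowest at 10.01 TPM. The medians of the former in the last 2 libraries were 11.9 and 22.0 TPM, and those of the latter were 13.8 and 18.5 TPM. In all, 406 rows were under 1 TPM before the midblastula and first at 10 TPM or more at NF 30 or NF 33. The floor on the tailbud mean left out 296 of these, the highest at 9.99 TPM, and 43 members had a tailbud mean of 10.02 to 12 TPM. The 110 are thus the more abundant part of the late rows.

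Some members had row names with consecutive numbers, which the rule did not use. The table held 135 rows numbered directly before or after a member, a row between members being counted for each. Of these 14, or 10.4%, were members themselves, where members are 0.355% of all rows. In the 438 transcripts of NF 23 and NF 26, 8.62% of such neighbours were of the same set, where those transcripts are 1.41% of all rows. What the numbers stand for is not stated in the labels or the table. The 13 members concerned form 5 pairs and 1 group of 3. At NF 33 they lay between 26.8 and 276 TPM, and 12 of them were under 1 TPM in every library up to NF 20.

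Most members with consecutive numbers had large last steps. Of the 13, 11 were at least 4-fold higher at NF 33 than at NF 30, against 30 of the other 97 members. The median log2 change was 3.50 against 1.19. Most of the 13 crossed 10 TPM at NF 33. Over all members, 31 of the 41 that crossed there were at least 4-fold higher, with a median log2 change of 3.50. For the 69 that crossed at NF 30 these values were 10 and 0.84. The stage of crossing, which the rule used, was not held equal in this comparison. At NF 30 the group of 3 had levels of 7.21, 14.4 and 5.64 TPM, which became 92.9, 121 and 149 TPM at NF 33. One pair had 7.88 and 6.39 TPM and then 176 and 147 TPM. Another pair had 0.807 and 1.04 TPM and then 63.0 and 45.9 TPM. Levels were less alike in a further pair, at 3.15 and 46.3 TPM and then 46.0 and 276 TPM. The remaining pairs had the smallest steps. One went from 14.5 and 9.21 TPM to 48.2 and 40.8 TPM, and the other from 8.90 and 12.8 TPM to 26.8 and 64.0 TPM. Within a pair or group the log2 changes differed by a median of 0.68. This pattern was noticed after the values were seen and was not tested, and whether neighbouring rows share reads through like sequences was not tested either.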

How the data were processed

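Embryo RNA of 18 stages was analysed, 1 library per stage. Per the submitters' processing notes, the tools were CASAVA 1.8.2, Trimmomatic, Bowtie and RSEM. Their roles, the transcript reference and the genome build are not stated there. The table had 30993 Xenopus and 92 spike-in rows. The values the authors deposited were TPM in 9 columns, each summing to 1000000 within rounding. The other 9 columns held a signal on the same scale as deposited, summing to 1.48% to 2.72% more, while the fixed design had assumed TPM. Spike-in rows were dropped and Xenopus rows of each library rescaled to 1000000, called TPM throughout. TPM keeps no depth, so the depth is unknown and no counting interval is given, and a 0 means only that a row is listed at 0. Suffix letters of unstated meaning mark the columns of NF 0 to NF 8.

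log2(TPM + 1) was fitted with limma 3.58.1 in R 4.3.3 (6 windows in 1 fit, eBayes with trend, row mean of 1 TPM or more, Benjamini-Hochberg adjustment, threshold 0.05). The script was tested on simulated data. Nothing says that libraries came from separate batches of embryos. Members, windows and comparisons were chosen with earlier results of these data known. Row names were printed for the 2 members with the highest mean of NF 30 and NF 33 and the 2 with the lowest log2 ratio of NF 33 to NF 30. The marker lists planned by symbol were not run, since no row carries a symbol.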

Additional observations from a re-analysis of the deposited data

Results flagged for a closer look

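In the pre-midblastula and neurula windows, 8 sets of values were checked for a single stage standing apart, and 2 held one. For independent sets chance flags about 1 in 20, but these sets are related measures of the same 9 libraries, which are ordered stages, so that rate does not apply here. The members' share of the Xenopus total at NF 20 was 0.0113%, above the 0.00339% to 0.00456% of the 3 other neurula libraries. The share at NF 0 was 0.000745%, below the 0.00101% to 0.00104% of the 4 other pre-midblastula libraries.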

How the results depend on the processing

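The number of members depends on the scale and the thresholds. It was 297 with spike-in scaling, 183 with median ratio scaling, 43 with an onset threshold of 5, 199 with an onset threshold of 20, and 25 with a floor of 20 on the tailbud mean. With a ceiling of 5 at NF 26, added after the data were seen, it was 43. With 1 of the 4 tailbud libraries left out it ranged from 24 (without NF 33) to 280 (without NF 26), with 177 without NF 23. The members' summed level in the late tailbud window was 0.382% of the Xenopus total, and 0.801% of an average total with spike-in scaling. The median log2 change from NF 30 to NF 33 was 3.50 for the members chosen with an onset threshold of 5 and 0.86 for those chosen with 20. Under the 2 other scalings and pseudocounts of 0.5 and 5 it was 1.11 to 1.40.

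Counts of members called higher by limma moved with the settings, and so did those over all rows. With a filter on a mean of at least 5 TPM, 22 members were tested. In neurula versus gastrula 0 were called (0 at an unadjusted p under 0.05), where 3246 of all 16617 rows were called higher. Early tailbud versus neurula gave 7, where 2766 of all rows were, and late versus early tailbud gave 20, where 160 were. The 22 passed this filter through the late libraries in which they were chosen to be high, so nothing is read from these counts. Neurula versus gastrula gave 4 with pseudocount 5 and 0 with array weights, where 4272 and 892 of all 21670 rows were called higher. Leaving out in turn each library of the 2 windows compared gave 4 to 15 for neurula versus gastrula, 43 to 70 for early tailbud versus neurula and 8 to 86 for late versus early tailbud. In late versus early tailbud the 8 were of 72 members tested and the 86 of 109. These ranges include fits with 1 library left in a window, so nothing is read from them. A window left with 1 library is assumed to vary like the others. Where a neurula library was left out, neurula versus gastrula gave 10 to 15 members, where 4086 to 4565 of all rows were called higher. Early tailbud versus neurula then gave 60 to 66, where 3629 to 5402 of all rows were. Scaling per spike-in moved the median log2 change of all rows from 0.11 to 0.76 in early tailbud versus neurula. In neurula versus gastrula it moved from -0.24 to 0.09. Members called higher were 74 and 12, where 11519 and 5852 of all 22321 rows were. In late versus early tailbud the median of all rows moved from -0.12 to 0.30, with 91 members and 1857 of all rows called higher. Median ratio scaling moved that median to 0.18 in neurula versus gastrula and to -0.01 in late versus early tailbud. Members called higher were then 14 and 72, where 7102 and 734 of all 22144 rows were. The cause of these shifts was not tested. Without the 7 members above 0 in 1 library only, the counts called higher were the same, at 14, 66 and 65 in stage order. No member was called lower in any of these 3 contrasts under any setting run. No paired analysis was possible because each stage had 1 library.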

Other observations

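Of the 7 members above 0 in 1 library only, 2 had the same level after rescaling, 43.0217 TPM at NF 33. Above the maternal ceiling of the rule, 7 rows met its other limits with a pre-midblastula mean of 1 to under 2 TPM.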
